A study of Mus musculus with 6 samples.

Results

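Transcripts typical of fibroblasts and other mesenchymal cells were followed in cultures of mouse embryonic stem cells. The list held 40 genes, each matched to the array by gene symbol and read from 1 probe set, the brightest of that gene over the 6 arrays. Of these, 39 were measured among the 18193 genes of the series. Fbn1 was not analysed here. The 6 arrays comprised 3 of wild-type cells (wt) and 3 of cells that carry the Dido3deltaCT form, in which the C-terminal part of the Dido3 protein is truncated (exp). Both groups were kept in parallel in self-renewal medium with leukemia inhibitory factor. Per the labels the 3 arrays of a group are biological replicates, and how many independent cell lines they come from is not stated there, so p-values measure the spread between these cultures. The labels name neither a feeder layer nor fibroblasts.

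Fibroblasts build the interstitial matrix. They secrete fibrillar collagens, which are folded with the help of dedicated chaperones, cross-linked by lysyl oxidases and organised by small proteoglycans and glycoproteins. Many fibroblasts in culture also carry a contractile apparatus of smooth muscle actin and its binding proteins. Embryonic fibroblasts are widely used as feeder cells beneath mouse embryonic stem cells, which themselves make little interstitial collagen. In whole cultures such as these, fewer cells of a type and less RNA per cell cannot be told apart.

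The cultures carried the transcripts of stem cells and of mesenchymal cells together. All 15 measured stem cell markers lay above the array median on every array, and their mean was between 10.57 and 10.69 (log2). Pou5f1, the gene for Oct4, lay between 11.11 and 11.49, Nanog between 10.68 and 11.31 and Sox2 between 11.36 and 11.70. Of the 39 mesenchymal genes, 36 exceeded the array median on each of 4 arrays, while 27 did so on wild-type replicate 3 against 33 on truncated replicate 2. Lum and Zeb2 exceeded the array median on no array and Fap on 1, so these 3 carried little of the label, which rests on the collagens, the other matrix genes and the contractile genes. Genes listed as markers of other lineages were mixed, and which cells of the cultures carried them, stem cells included, was not tested. Of 9 endothelial markers 2 exceeded the array median on every array and 3 on none, of 9 macrophage and blood markers 5 on every array and 2 on none, of 14 endoderm markers 5 and 6, and of 7 epithelial markers 6 and 1. Named after their values were seen, Cdh5 of endothelium lay between 3.59 and 3.96 and Ptprc of blood cells between 3.45 and 4.34, while Pecam1 of endothelium lay between 5.75 and 6.92 and Laptm5 of blood cells between 7.71 and 9.31.

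Each group held 1 array on which the mesenchymal genes were low. The mean over the 39 genes was 9.06, 8.69 and 6.09 on wild-type replicates 1, 2 and 3, and 8.42, 7.32 and 8.40 on truncated replicates 1, 2 and 3. Wild-type replicate 3 was thus the lowest of all arrays and truncated replicate 2 the next, and the groups overlapped. The same 2 arrays carried high poly-A spike-in controls, RNAs added during labelling, with means over 24 probe sets of 12.1 and 12.5 against 6.12 to 7.85 on the other 4 arrays. The hybridisation controls, added later, were between 9.60 and 9.85 on all 6. The difference between 3' and 5' probe sets of Actb, a sign of RNA quality, ran from 0.956 to 1.17 in wild-type and from 0.828 to 0.869 in truncated arrays. The part of the spike-in difference in the results below was not tested, and the comparison of the groups is also given within the 4 arrays whose controls were low.

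**Figure D1:**
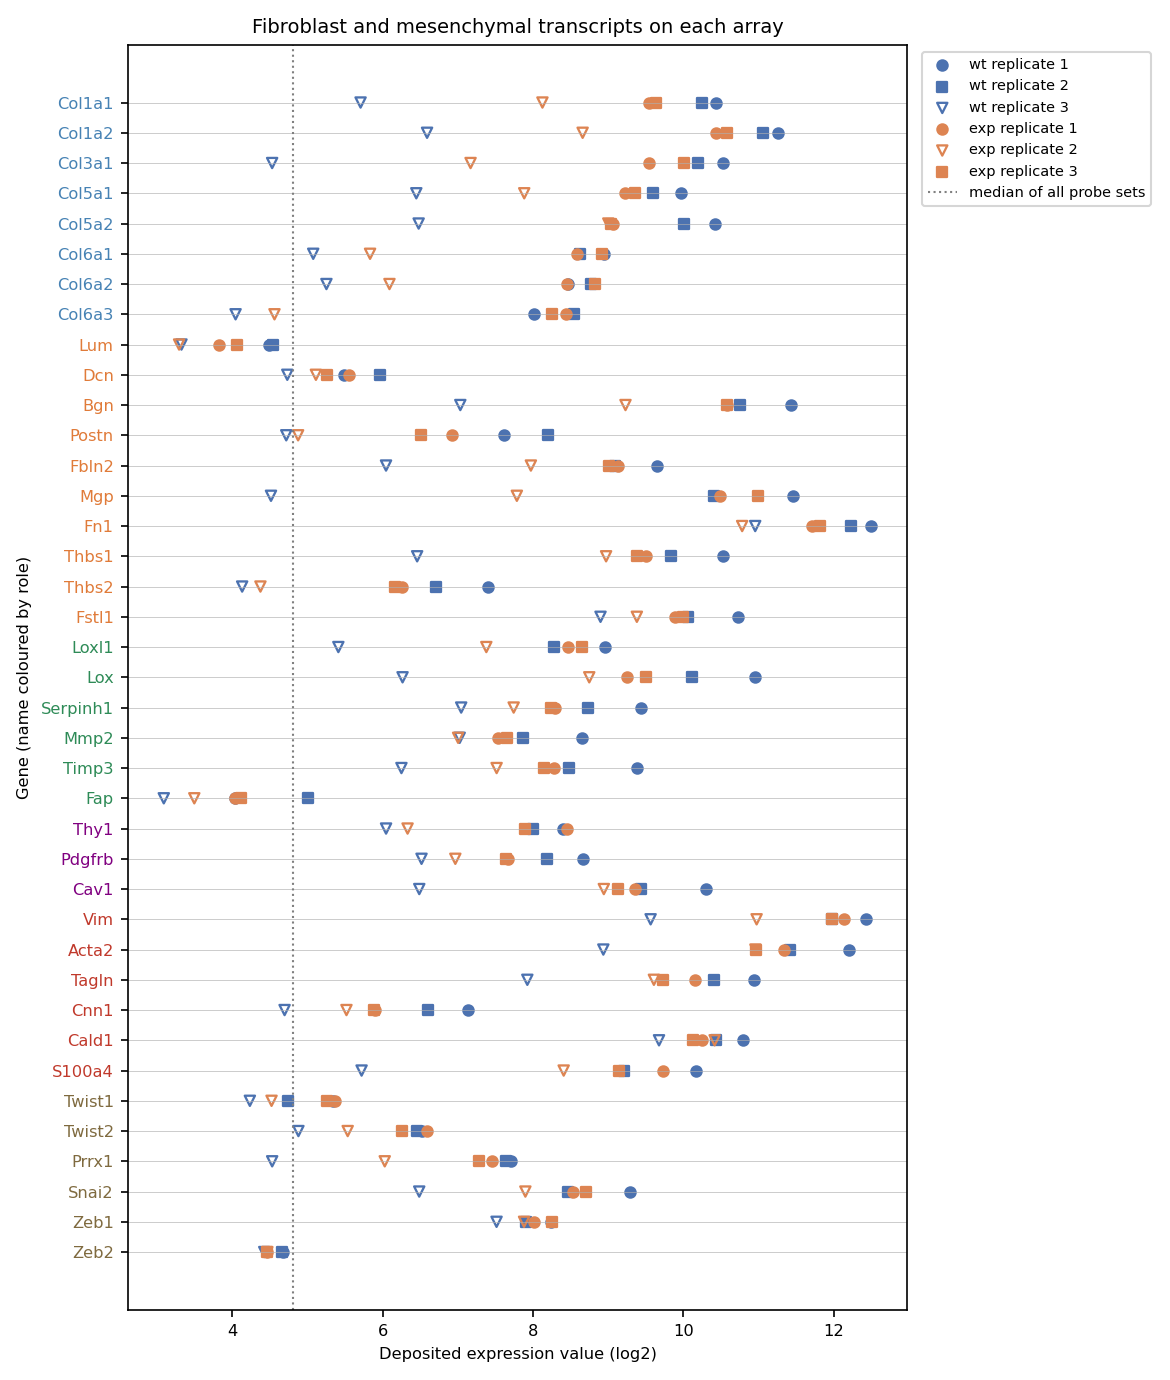
Deposited log2 value (x axis) of each measured gene (y axis, names coloured by role) on each of the 6 arrays; blue marks are wild-type (wt), orange marks truncated (exp), open triangles wild-type replicate 3 and truncated replicate 2, and the dotted line is the median of all probe sets. The open blue triangle lies below the other wild-type arrays in all 39 genes.

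Wild-type replicate 3 was the lowest wild-type array for 39 of 39 genes, where 42.5% of all genes had it lowest. Truncated replicate 2 was the lowest of its group for 37 of 39, where 41.2% of all genes did. The exceptions were Cald1 and Zeb2. Wild-type replicate 3 lay more than 1 log2 unit below the lower of the other wild-type arrays for 32 members, a gap reached by 1.31% of all genes. Truncated replicate 2 did so for 16 members, against 0.429% of all genes, and those 16 were all among the 32 (0.253% of all genes passed on both). The list was proposed with this contrast in view, so these counts describe it and carry no test. Compared with the other arrays of its group, the median member was 7.35-fold lower in the low wild-type array and 1.73-fold lower in the low truncated one; over all genes these medians were 1.02 and 1.02.

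The fibrillar collagens were the group with the widest gap. Col1a1, the main chain of type I collagen, was at 10.43, 10.25 and 5.71 on wild-type replicates 1 to 3 and at 9.54, 8.12 and 9.63 on truncated replicates 1 to 3. Its level on wild-type replicate 3 was 4.03% of the geometric mean of the other wild-type arrays, and on truncated replicate 2 it was 36.4% of that of the other truncated arrays. All such percentages are antilogs of log2 differences, and near the floor of the array they understate a gap. Col1a2, the partner chain, followed closely, at 4.23% and 27.9%. The size of the gap depended on the probe set. A second probe set of Col1a1 read 8.34, 8.27 and 6.45 in wild-type and 7.72, 7.38 and 7.92 in truncated arrays. Its gaps were −1.86 and −0.44 log2 units, against −4.63 and −1.46 on the brightest one. Col3a1, which joins type I collagen in the fibrils of soft tissue, was at 10.52, 10.19 and 4.53 in wild-type and 9.54, 7.17 and 10.01 in truncated arrays. It stood at 1.76% on wild-type replicate 3, where it was below the array median, and at 16.4% on truncated replicate 2.

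Type V collagen, which starts fibrils and limits their width, differed between its 2 chains on the brightest probe sets. Col5a1 was at 9.93% on wild-type replicate 3 against 37.6% on truncated replicate 2, gaps of −3.33 and −1.41 log2 units. Its other 2 probe sets had smaller gaps, −2.72 and −0.51 on one and −1.27 and −0.41 on the other. Truncated replicate 2 was still the lowest of its group in both, but the contrast with Col5a2 was smaller there. Col5a2 was at 10.42, 10.00 and 6.48 in wild-type arrays and at 9.07, 9.00 and 9.04 in truncated arrays. The 3 truncated arrays lay close together, so the low value of Col5a2 appeared on wild-type replicate 3 and had no counterpart on truncated replicate 2, where it stood at 96.5%. A second probe set of Col5a2 read 6.52, 6.29 and 3.90 in wild-type and 5.17, 5.29 and 5.55 in truncated arrays, and there truncated replicate 2 was not the lowest.

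The chains of type VI collagen, the beaded filament collagen around cells, were low on both arrays alike. Col6a1 was at 8.94, 8.62 and 5.08 in wild-type and 8.59, 5.83 and 8.92 in truncated arrays. Col6a2 was at 9.72% on wild-type replicate 3 against 17.1% on truncated replicate 2. Col6a3 was at 8.01, 8.54 and 4.04 in wild-type and at 8.44, 4.56 and 8.25 in truncated arrays. It stood at 5.33% and 7.25%, which on truncated replicate 2 was the lowest percentage of the 39 members. On the other 4 arrays the truncated minus wild-type differences were −0.03 for Col6a1, 0.02 for Col6a2 and 0.07 for Col6a3, and none of the 3 passed the limma test there.

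The matrix glycoproteins and proteoglycans ran from 1.17% (Mgp) to 50.3% (Dcn) on the low wild-type array and from 12.9% (Mgp) to 81.5% (Dcn) on the low truncated one. Mgp, an inhibitor of calcification abundant in cartilage and vessel wall, was at 11.46, 10.40 and 4.51 in wild-type and 10.48, 7.78 and 10.99 in truncated arrays. Its 1.17% on wild-type replicate 3 was the lowest percentage of any member there. Biglycan (Bgn), a small proteoglycan of collagen fibrils, stood at 6.01% and 39.4%, and fibulin 2 (Fbln2), an elastic fibre protein, at 10.0% and 46.7%. Postn, which encodes the collagen-binding periostin, was at 7.61, 8.20 and 4.72 in wild-type and 6.92, 4.88 and 6.51 in truncated arrays. The thrombospondins, secreted regulators of adhesion, parted: Thbs2 stood at 13.2% and 28.0%, but Thbs1 at 7.58% and 72.2%. Values of Thbs1 were 10.52, 9.84 and 6.46 in wild-type against 9.50, 8.97 and 9.39 in truncated arrays.

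Fibronectin and follistatin-like 1 had the smallest gaps on wild-type replicate 3 among the bright glycoproteins. Fn1, which many cell types including stem cells can make, was at 12.50, 12.22 and 10.95 in wild-type and 11.70, 10.78 and 11.81 in truncated arrays, or 37.7% and 50.8%. Its value was lower on truncated replicate 2 than on wild-type replicate 3, which of the other 38 members held for Lum and Mmp2. A second, dimmer probe set of Fn1 read 8.73, 8.66 and 8.34 in wild-type and 7.91, 7.49 and 7.98 in truncated arrays. On that probe set the groups did not overlap, with a difference of −0.79 (limma unadjusted p = 0.0022, adjusted p = 0.0629). Its gap on wild-type replicate 3 was −0.35 log2 units. Fstl1, a secreted glycoprotein, stood at 35.4% and 67.7%. The small proteoglycans lumican and decorin were dim. Lum lay between 3.29 and 4.54 on all 6 arrays and Dcn between 4.73 and 5.96, so their 43.9% and 50.3% on wild-type replicate 3 are limited by the floor of the array.

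Enzymes, inhibitors and the chaperone of the matrix had median gaps of 5.12-fold on wild-type replicate 3 against 1.53-fold on truncated replicate 2. Lox, the lysyl oxidase that cross-links collagen and elastin, was at 10.95, 10.11 and 6.26 in wild-type and at 9.25, 8.75 and 9.51 in truncated arrays. It stood at 5.20% on wild-type replicate 3 against 64.6% on truncated replicate 2. Its relative Loxl1, which acts on elastic fibres, stood at 10.8% and 44.2%. Serpinh1, the collagen chaperone HSP47, was at 24.4% and 69.4%, and the metalloproteinase inhibitor Timp3 at 15.6% and 61.5%. Over the probe sets of Timp3 the gaps ran from −3.43 to −1.95 log2 units on wild-type replicate 3. On truncated replicate 2 they ran from −1.23 to −0.19. The gelatinase gene Mmp2 was at 42.5% and 66.2%, and Fap, a fibroblast surface protease, at 37.1% and 66.9% with 5 of 6 values under the array median.

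Among surface genes, Thy1 resembled the type VI collagens and Cav1 did not. Thy1, a membrane glycoprotein used to sort fibroblasts, was at 8.40, 8.00 and 6.05 in wild-type and 8.45, 6.33 and 7.89 in truncated arrays, or 22.4% and 28.0%. Cav1, the coat protein of caveolae, was at 10.30, 9.43 and 6.49 in wild-type and 9.36, 8.94 and 9.13 in truncated arrays, or 9.60% and 81.0%. Pdgfrb, the receptor for platelet-derived growth factor found on fibroblasts and pericytes, stood between them at 26.6% and 62.3%.

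Genes of the contractile apparatus were low on wild-type replicate 3 and close to their group on truncated replicate 2. Acta2, smooth muscle actin, was at 12.20, 11.42 and 8.93 in wild-type and 11.34, 10.96 and 10.97 in truncated arrays, or 13.6% and 87.3%. Its actin-binding partners Tagln and Cnn1 stood at 14.8% and 22.2% on wild-type replicate 3 against 79.2% and 77.0% on truncated replicate 2. Cald1, caldesmon, was at 10.79, 10.44 and 9.67 in wild-type and 10.25, 10.41 and 10.13 in truncated arrays; truncated replicate 2 was the highest of its group. The other 2 probe sets of Cald1 that exceeded the array median on every array did not share this, reading 8.61, 8.29 and 8.49, and 8.57, 7.84 and 8.15, in truncated arrays. Vim, the intermediate filament of mesenchymal cells, stood at 16.1% and 47.3% on its brightest probe set, gaps of −2.64 and −1.08 log2 units. Its other probe sets had smaller gaps, −1.54 and −0.54 on one and −1.86 and −0.67 on the other. S100a4, a calcium-binding protein of fibroblasts, was at 10.17, 9.21 and 5.72 in wild-type and 9.72, 8.41 and 9.15 in truncated arrays, or 6.40% and 49.1%.

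The mesenchymal transcription factors had the smallest median gap of the 6 roles on wild-type replicate 3, 2.31-fold, but not on truncated replicate 2, where theirs was 1.69-fold against 1.28-fold for contractile genes. Prrx1, a homeobox factor of limb and craniofacial mesenchyme, was at 7.70, 7.65 and 4.53 in wild-type and 7.46, 6.03 and 7.29 in truncated arrays, or 11.3% and 39.4%. Snai2, a repressor of epithelial genes, stood at 19.0% and 60.8%. The basic helix-loop-helix factor Twist1 was dim, between 4.23 and 5.36, and Twist2 stood at 32.8% and 53.9%. Zeb1, another repressor of epithelial genes, lay between 7.51 and 8.26 on all arrays. Its relative Zeb2 was listed at 4.47 on all 3 truncated arrays. Such identical values within the truncated group occurred for 290 of 45037 probe sets.

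**Figure D2:**
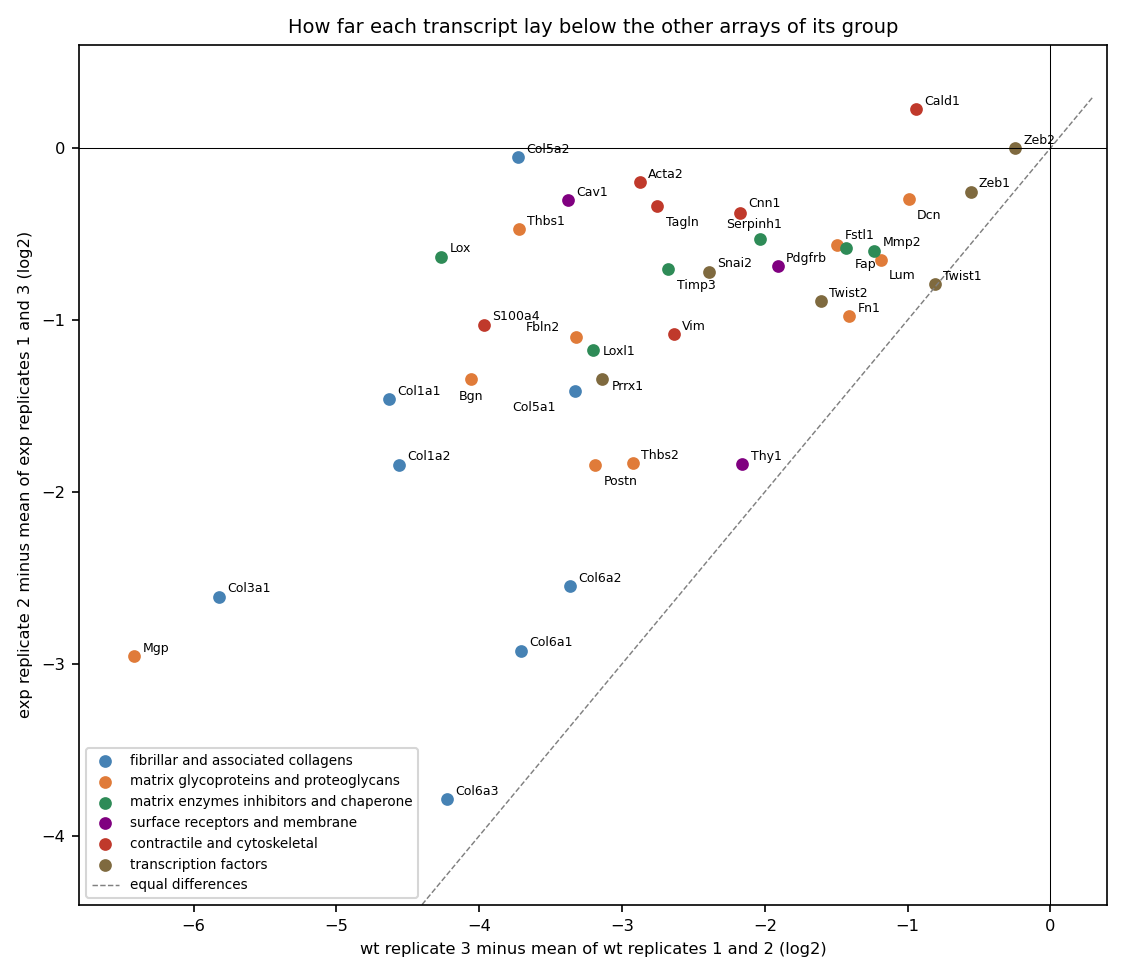
Log2 difference between wild-type replicate 3 and the mean of the other wild-type arrays (x axis) against that between truncated replicate 2 and the mean of the other truncated arrays (y axis), 1 point per gene, coloured by role; the dashed line marks equal differences. All 39 points lie above the line, with Twist1, Zeb2, Zeb1 and Thy1 nearest to it and Col5a2, Lox, Mgp and Thbs1 farthest from it.

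The gap was wider on wild-type replicate 3 than on truncated replicate 2 for 39 of 39 members. Across the 39 genes the 2 gaps had a Pearson correlation of 0.637 (Spearman 0.572), against a Pearson correlation of 0.401 over all 18193 genes; genes of a list share cells and arrays and are not independent. By role, the median gap was 15.8-fold and 4.58-fold for the collagens on wild-type replicate 3 and truncated replicate 2. It was 8.32-fold and 2.05-fold for glycoproteins and proteoglycans, 6.47-fold and 1.28-fold for contractile genes, and 2.31-fold and 1.69-fold for transcription factors. The difference between the 2 gaps was 3.68 log2 units for Col5a2 and 0.44 for Col6a3. Each gap rests on 1 array and helped to define the question, so these values carry no test.

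The start regions of genes at both ends of this range are shown so that the stretch next to each start can be read beside its values. Col6a1 and Col6a3 were low on both arrays, and Acta2 and Cav1 close to their group on truncated replicate 2; the 4 were chosen after their values were seen. Each line is the RefSeq sequence of the 250 bases before an annotated start (GRCm38.p6), 5′ to 3′ on the strand of the gene. Cav1 has 2 listed starts, and the first listed is shown. Capitals mark matches on either strand to the TATA box (TATAAA), the CCAAT box (CCAAT), the GC box (GGGCGG), the AP-1 element (TGANTCA) or the TEAD element (GGAATG).
Col6a1, chr10:76726045-76726294, minus strand: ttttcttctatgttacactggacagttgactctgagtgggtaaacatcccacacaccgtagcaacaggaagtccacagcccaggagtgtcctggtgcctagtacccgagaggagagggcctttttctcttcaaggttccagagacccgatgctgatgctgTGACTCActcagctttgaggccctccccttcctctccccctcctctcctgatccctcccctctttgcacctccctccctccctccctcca
Col6a3, chr1:90843972-90844221, minus strand: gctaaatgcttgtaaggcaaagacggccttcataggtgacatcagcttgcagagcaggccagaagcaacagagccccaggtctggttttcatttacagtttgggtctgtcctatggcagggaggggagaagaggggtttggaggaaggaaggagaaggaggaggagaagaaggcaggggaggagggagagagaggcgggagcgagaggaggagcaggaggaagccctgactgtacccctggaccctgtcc
Acta2, chr19:34255374-34255623, minus strand: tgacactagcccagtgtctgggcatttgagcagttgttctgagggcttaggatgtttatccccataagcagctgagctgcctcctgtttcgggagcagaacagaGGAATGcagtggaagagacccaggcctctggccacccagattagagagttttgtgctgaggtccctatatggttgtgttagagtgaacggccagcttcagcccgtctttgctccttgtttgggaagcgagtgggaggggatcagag
Cav1, chr6:17306085-17306334, plus strand: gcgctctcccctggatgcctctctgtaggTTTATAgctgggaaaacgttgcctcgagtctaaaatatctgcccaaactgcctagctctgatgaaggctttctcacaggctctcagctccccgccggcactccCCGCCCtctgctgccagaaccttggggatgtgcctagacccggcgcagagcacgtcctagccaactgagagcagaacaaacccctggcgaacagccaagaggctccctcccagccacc

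Col6a1 held an AP-1 match, Acta2 a TEAD match, Cav1 a TATA and a GC box match, and Col6a3 none of these letters. Promoters were listed for 23 of the 39 measured members. Of the 23, 6 held the TATA box, 8 the CCAAT box, 11 the GC box, 1 the AP-1 element and 5 the TEAD element. Over all 32851 promoters the shares were 12.4%, 33.8%, 32.7%, 6.75% and 12.6%. Members were counted once per gene, whereas the 32851 list some genes at more than 1 start, so the units differ. The motifs do not overlap each other in these 4 sequences, and a match is a string of letters and not a site in use.

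Truncated and wild-type cells were not set apart by these genes when all 6 arrays were compared. None of the 39 members rose or fell in the limma fit, where 4.67% of all genes passed an adjusted p of 0.05 (2.7% higher and 1.97% lower in truncated cells), and 0 of 39 had an unadjusted p below 0.05, against 18.5% of all genes. Adjusted p ranged from 0.609 to 0.991. On the probe set used for each gene the groups overlapped for all 39 members, while 22.4% of all genes had groups that did not. The list was proposed with 1 low array per group in view, which widens the spread within each group. Overlap and high p-values therefore follow in part from that choice, and the shares of all genes are given for scale only. The median difference, truncated minus wild-type, was 0.16 over the members and 0.0071 over all genes, and 25 members were higher and 14 lower in the truncated mean. For the collagens the SDs were up to 3.37 in wild-type (Col3a1, 8.41 ± 3.37, SD, n = 3) and the standard errors of the difference up to 1.63. Mgp had the largest difference, 0.96 (SE 1.82), and Postn the most negative, −0.74 (SE 0.95), with limma adjusted p of 0.860 and 0.776. The group means over the members were 7.95 ± 1.62 and 8.04 ± 0.63 (SD, n = 3 each).

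The direction of the difference depended on the arrays: the 4 whose spike-in controls were low gave one sign for most members and the remaining pair the other. The truncated mean was lower for 35 of 39 members in the 4 arrays, where 49.7% of all genes were lower, with a median difference of −0.49 against 0.00082 over all genes. Both truncated arrays lay below both wild-type arrays for 24 members, against 25.3% of all genes, and both lay above for 0. Truncated replicate 2 was higher than wild-type replicate 3 for 36 of 39, where 51% of all genes were higher, with a median difference of 0.84. Both signs together, lower in the 4 arrays and higher in the pair, were found for 32 members and for 20.1% of all genes. By construction, the pair difference minus the 4-array difference equals the difference between the 2 gaps. That difference had the same sign for all 39 members and was known when the list was proposed. The count of both signs thus restates it and carries no test. The pair holds 1 array per group and has no replicate.

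In those 4 arrays 2 members fell in truncated cells, Col1a1 and Col5a2, while 2.17% of all genes fell and 5.12% passed in either direction. Col5a2 differed by −1.16 (SE 0.16; limma adjusted p = 0.0354) and Col1a1 by −0.76 (SE 0.11; limma adjusted p = 0.0377). In the pair the same genes were higher on truncated replicate 2 by 2.52 and 2.42. Over all alternatives the adjusted p of Col5a2 ranged from 0.00868 to 0.996 and that of Col1a1 from 0.0377 to 0.997. Other members of similar difference did not pass in the 4 arrays: Postn was at −1.19 (limma adjusted p = 0.0734), Lox at −1.15 (0.110) and Cnn1 at −0.97 (0.0647). Leaving out wild-type replicate 3 alone also gave 2 calls, Col5a2 at −1.18 (limma adjusted p = 0.00868) and Cnn1 at −1.10 (0.0273).

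**Figure D3:**
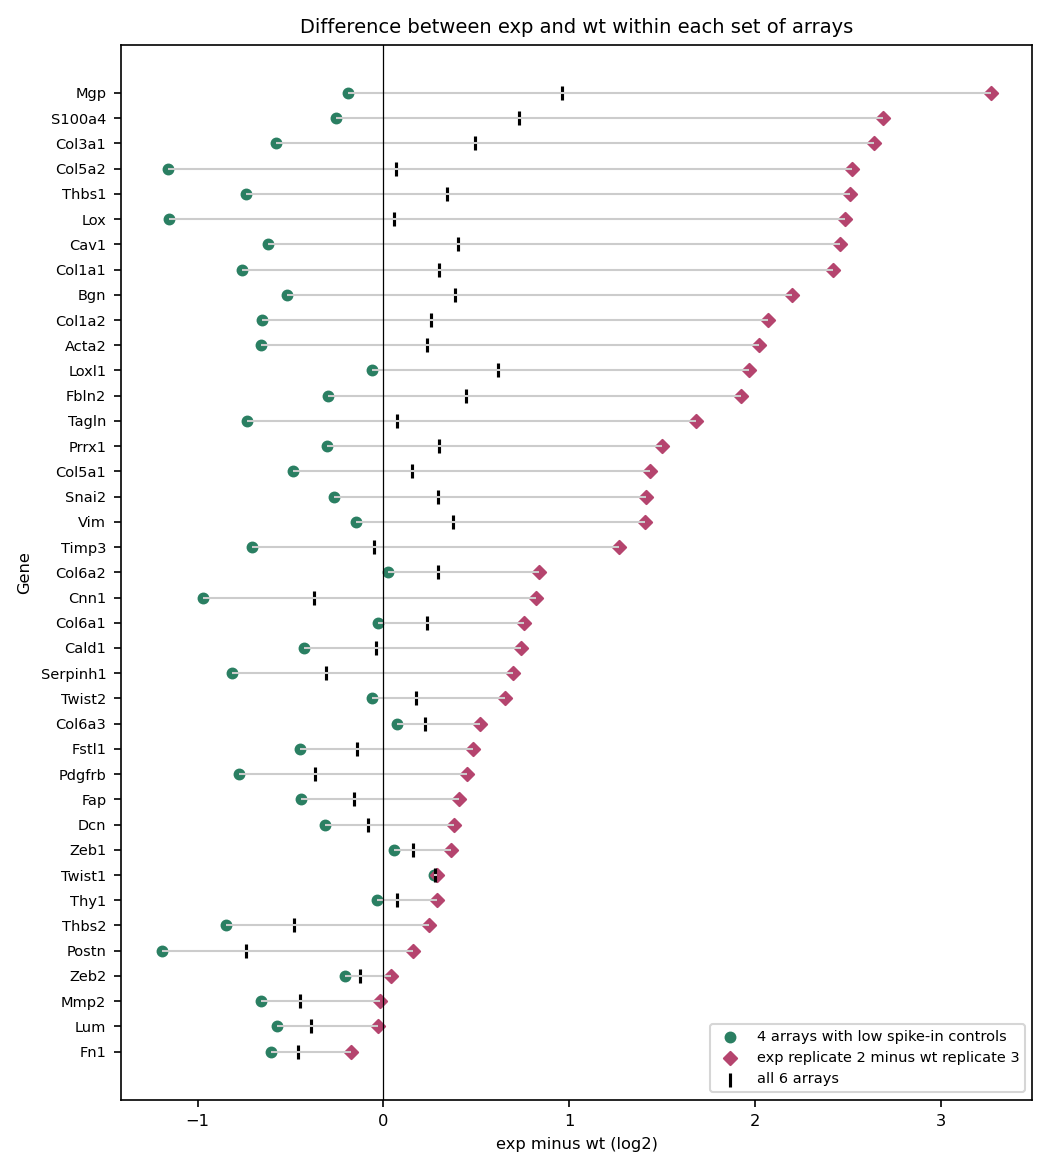
Truncated minus wild-type difference (x axis, log2) for each member (y axis) within the 4 arrays with low spike-in controls (circles), within the pair with high controls (diamonds) and over all 6 arrays (ticks). Circles lie left of 0 for 35 of 39 genes and diamonds right of 0 for 36 of 39.

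The 39 genes had 86 probe sets, of which 0 passed the limma fit between the groups over all probe sets. Of the 47 that did not represent their gene, 28 exceeded the array median on wild-type replicates 1 and 2. Wild-type replicate 3 was the lowest of its group in 27 of the 28, and truncated replicate 2 in 27. Probe sets bright on wild-type replicates 1 and 2 were kept, which favours a low wild-type replicate 3. Their genes were also listed with this contrast in view, so these counts carry no test. Among the dimmer probe sets left out, some had no gap on wild-type replicate 3.

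Other mesenchymal genes came from lists beyond the 39 members, chosen with earlier results of these data known. Their median gaps were smaller than those of the members on both arrays, and the lists differed on truncated replicate 2. Of 32 measured matrix genes of 38 listed, 0 rose or fell between the groups in the limma fit (1 at an unadjusted p below 0.05), and wild-type replicate 3 was lowest for 31 and truncated replicate 2 for 24. Their median gaps were 2.52-fold and 1.31-fold. Sparc, a matrix glycoprotein, stood at 34.2% on wild-type replicate 3 against 74.5% on truncated replicate 2, and Timp1, a metalloproteinase inhibitor, at 13.6% and 59.2%. Chosen after their values were seen, Tnc (tenascin C) stood at 4.12% and 32.0%, Timp2 at 3.85% and 47.8%, and the matrix-degrading Mmp3 at 12.3% and 9.25%. Within the 4 arrays with low controls 1 of the 32 rose in truncated cells, Mmp3, by 1.31 (SE 0.09; limma adjusted p = 0.0119), and 0 fell. Its values were 6.85, 6.91 and 3.86 in wild-type and 8.15, 4.76 and 8.24 in truncated arrays. Of 24 surface and signalling genes of 26 listed, 0 rose or fell in that fit (1 at an unadjusted p below 0.05), with median gaps of 2.81-fold and 1.27-fold. Wild-type replicate 3 was lowest for 21 of the 24 and truncated replicate 2 for 15. Within the 4 arrays 1 fell, the growth factor gene Tgfb1, at −1.43 (limma adjusted p = 0.0137). Over all genes 5.12% passed in the 4 arrays in either direction. Over the 6 arrays 4.67% of all genes passed and 18.5% had an unadjusted p below 0.05. The galectin gene Lgals1 stood at 29.5% and 65.4%, S100a6 at 20.9% and 91.3% and Anxa1 at 19.9% and 92.4%; Cdh11, a mesenchymal cadherin chosen after its values were seen, at 2.96% and 41.7%.

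The genes that process collagen in the secretory pathway had smaller median gaps than the members. Of 14 measured of 18 listed, 0 rose or fell in the limma fit (1 at an unadjusted p below 0.05), and the median gaps were 1.41-fold and 1.22-fold. Ppib, a prolyl isomerase of the endoplasmic reticulum, stood at 61.0% and 81.8%, and P4hb, a subunit of prolyl hydroxylase, at 61.1% and 74.2%. Sec23a, a coat protein of export vesicles, was higher on both arrays, at 123% and 113%. More than 1 log2 unit below the lower of the other arrays lay 1 of 14 on wild-type replicate 3 and 3 of 14 on truncated replicate 2. Named after their values were seen, the collagen hydroxylase genes P4ha2, Plod2 and P4ha1 stood at 64.5%, 98.0% and 70.4% on the wild-type array and at 25.5%, 30.2% and 43.0% on the truncated one. Within the 4 arrays 0 of the 14 passed the limma test.

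Among the other 14 smooth muscle and actin genes, 1 fell between the groups: Actn1, alpha-actinin, by 0.50 (SE 0.10; limma adjusted p = 0.039). The wild-type mean was 10.98 ± 0.07 and the truncated mean 10.48 ± 0.11 (SD, n = 3), and the gene was at 107% and 113% on the 2 arrays where the members were low. In the 4 arrays it was at −0.53 and did not pass (limma adjusted p = 0.0540), while Actg2, an enteric smooth muscle actin, fell there (−1.18, limma adjusted p = 0.0323). Tpm2, a tropomyosin, stood at 41.7% and 78.8%, and the focal adhesion protein Vcl at 63.8% and 96.4%. Myh11, the myosin of mature smooth muscle, named here after its values were seen, lay between 3.85 and 4.55 and exceeded the array median on no array. Among 19 other mesenchymal transcription factors of 20 listed, 1 fell, Tcf4, with a mean of 8.35 ± 0.08 in wild-type against 7.32 ± 0.16 in truncated arrays (SD, n = 3) and a limma adjusted p of 0.00619. In the 4 arrays Tcf4 fell as well (limma adjusted p = 0.0181). It was not low on wild-type replicate 3 (90.5%). Of the 19, 10 exceeded the array median on no array. Wild-type replicate 3 was lowest for 12 of the 14 actin genes and 14 of the 19 factors, against 42.5% of all genes. Truncated replicate 2 was lowest for 7 and 8, against 41.2%. The median gaps were 1.60-fold and 1.04-fold for the actin genes, and 1.31-fold and 1.04-fold for the factors. Over all genes 4.67% passed over the 6 arrays and 5.12% in the 4 arrays, so single calls per list are near that share.

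**Figure D4:**
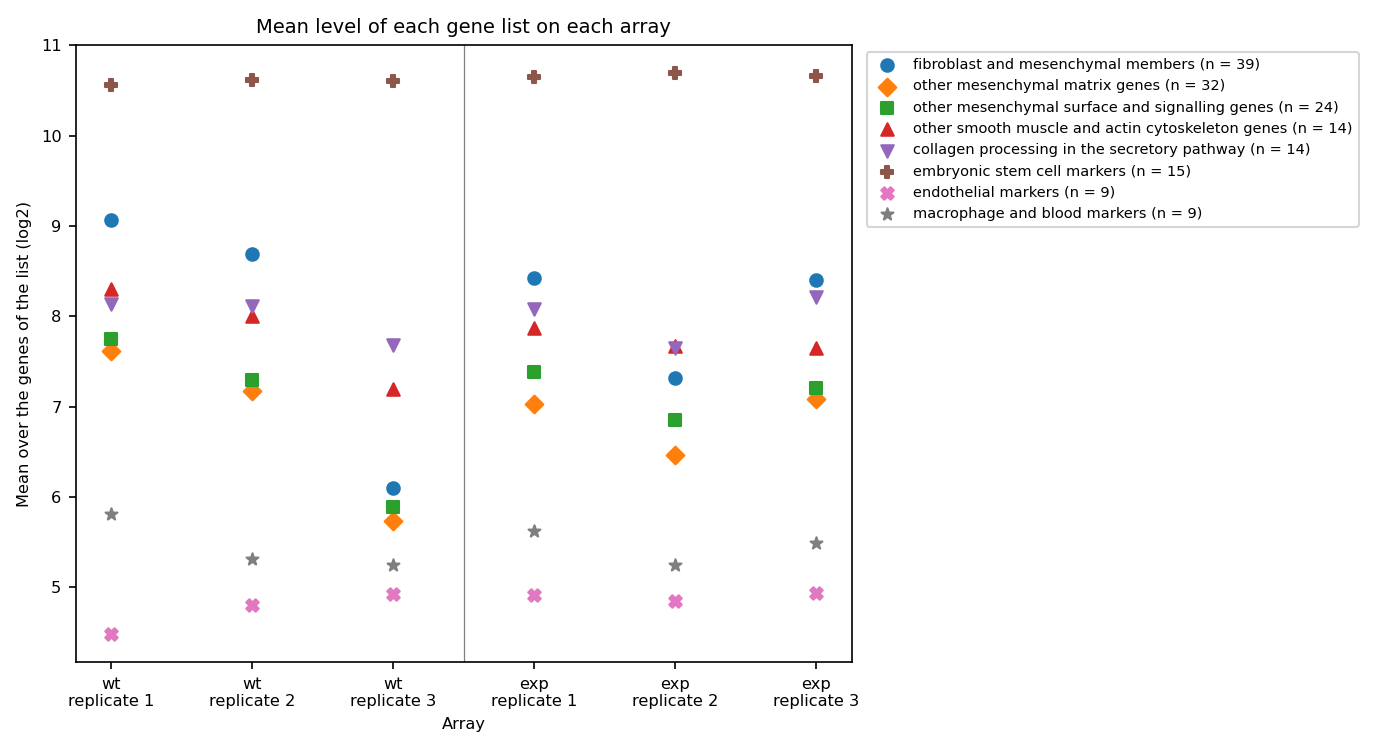
Mean log2 value over the genes of 8 lists (y axis) on each array (x axis), 1 mark shape per list. In wild-type the 4 mesenchymal lists, the collagen processing list and the macrophage and blood list are lowest on replicate 3. In truncated arrays these lists are lowest on replicate 2 except for smooth muscle and actin genes, at 7.67 there and 7.64 on replicate 3. The endothelial list is lowest on wild-type replicate 1 and truncated replicate 2. The stem cell markers stay between 10.57 and 10.69.

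The summed level of the other marker lists varied over narrower ranges than that of the members, and which cells carried these genes was not tested. The summed antilog level of the 39 members ran from 6747 to 47289 in wild-type and from 14801 to 28143 in truncated arrays. That of 15 stem cell markers ran from 32590 to 37056 and from 35462 to 36865, with median gaps of 0.961-fold and 0.972-fold on the 2 arrays. Of these 15, 1 rose in truncated cells, Rex2 (0.93, limma adjusted p = 0.0179), and 0 fell, with 7 at an unadjusted p below 0.05. Over all genes 4.67% passed in the limma fit and 18.5% had an unadjusted p below 0.05, which also holds as the scale for the lists below. Rex2 did not pass in the 4 arrays, at 0.80 (limma adjusted p = 0.0530). Sums for 9 endothelial markers ran from 230.3 to 363 and from 337 to 376, and for 9 macrophage and blood markers from 563 to 798 and from 795 to 936; 0 of either list rose or fell (1 and 2 at an unadjusted p below 0.05). The median gaps of the macrophage and blood markers were 1.30-fold and 1.15-fold. Their mean log2 level was also lowest on the same 2 arrays, at 5.81, 5.32 and 5.24 in wild-type and 5.62, 5.25 and 5.49 in truncated arrays. The part of these markers in the members' pattern was not tested. For 14 endoderm markers the sums ran from 1768 to 2178 and from 1689 to 2317, again with 0 limma calls (2 at an unadjusted p below 0.05). Of 7 epithelial markers 1 fell, Krt8 (−1.90, limma adjusted p = 0.0163), and 4 had an unadjusted p below 0.05, with sums from 2157 to 2839.9 and from 1513 to 1809.5. In the 4 arrays 3 of the 7 fell: Krt8 (−2.16), the cadherin gene Cdh1 (−0.92) and the claudin gene Cldn6 (−0.86), with limma adjusted p of 0.0461, 0.0222 and 0.0458. Of the endothelial, macrophage and blood, and endoderm markers 0 passed there, where 5.12% of all genes passed and 2.17% fell. Actb, read as a loading check, lay between 13.08 and 13.30 on the 6 arrays.

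Outside all lists, the 5 genes whose centred 6-array pattern lay closest to the mean of the members were Anxa5, Fosl2, App, Gzme and Alcam, with root mean square distances of 0.107 to 0.179 log2 units. Anxa5, a calcium-dependent phospholipid-binding protein, was at 10.43, 9.90 and 7.63 in wild-type and 9.87, 8.73 and 9.69 in truncated arrays. Fosl2, a subunit of AP-1, stood at 13.9% and 44.7%, and the adhesion molecule Alcam at 20.2% and 50.1%. Of the members themselves Vim was closest to their mean, at 0.152, and Mgp farthest, at 1.45.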

How the data were processed

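The table holds log2 expression values per probe set, deposited by the authors, for 6 Affymetrix mouse genome arrays; their scale follows from their range, and how probes were summarised is not stated in the labels. Array medians were 4.80 to 4.86, so no scaling was added; the number of arrays limits precision. Of 45101 probe sets, 64 controls were left out, 932 had several symbols, 9160 were unnamed and 34945 had 1 symbol, for 18193 genes. Members and lists were chosen with earlier results of these data known. Named genes were all members, 3 stem cell genes, Actb, up to 4 called and the 3 brightest of each list, and the 5 nearest patterns. Groups were compared with limma 3.58.1 in R 4.3.3, two-sided, adjusted over all genes, threshold 0.05. The 2 arrays with high spike-in controls exceeded the median array by more than 2 log2 units. An interaction fit of the gaps, added after the data were seen, is not used, since the list was proposed with these gaps known. The group fit was tested on simulated data over the 18193 genes and found 91 of 100 shifts of 2 log2 units and 70 of 100 shifts of 1. The shifted genes were drawn from all genes. These shares therefore do not apply to members with a wide spread, whose standard errors reached 1.82 (Mgp). Alternatives were scaling, probe set choice, variance, weights, blocks and left-out arrays. Gapdh was not analysed here as a gene.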

Additional observations from a re-analysis of the deposited data

How the results depend on the processing

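None of the 39 members passed in 14 of 16 alternatives; 2 passed in the 4 low spike-in arrays, where Col1a1 was at −0.76 and Col5a2 at −1.16 against positive 6-array differences. Leaving out 1 array gave 0 to 2 members, with Col5a2 between −1.18 and 0.79. Signs of the difference, called or not, changed for 21 members in the 4 arrays, 24 without wild-type replicate 3, 18 with array weights, 4 to 9 with another array left out and 7 with the mean of all probe sets, and for 0 under quantile normalization, median centring, the dim filter, the _x_at and _s_at filter, trended variance and both blocks. The count over all genes, 850, became 466 with the replicate block, 2057 with array weights and 1569 with the spike-in block, and 129 to 1191 with 1 array left out. The cause was not tested. Same-numbered arrays deviated with correlations of 0.294, −0.360 and −0.132, so the numbers did not pair the samples and the block changed no member's call. The median gap of wild-type replicate 3, −2.88, was −2.16 in the mean of all probe sets, and −3.13 to −2.49 with 1 other array left out. The gap of truncated replicate 2, −0.79, was between −0.89 and −0.65. Dim genes such as Lum and Fap limit what a gap can show.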
